A study of Mus musculus with 12 samples.

Results

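Asb2, Tgm2, Maob, Scin and Dpp4 are 5 of the 31301 genes in the count table of a study of bone marrow-derived basophils (BMBAs), and all 5 are among the 10861 genes with enough counts to be tested. They were chosen because their level differed widely between BMBAs grown in thymic stromal lymphopoietin (TSLP) and BMBAs grown in interleukin-3 (IL-3), with Asb2 and Tgm2 higher and Maob, Scin and Dpp4 lower in TSLP. The choice names no stage. Earlier results of these data showed Tgm2 and Maob among the most changed genes of mature cells and Asb2, Scin and Dpp4 among those of immature cells, and that stage is taken here as the one a gene was picked on and is described without a p. The test is given for the other stage, whose values may also have been seen when the genes were chosen, so its p values are not independent of the choice.

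Bone marrow cells of wild-type C57BL/6J mice were cultured for 7 days in 0.3 ng/mL IL-3 or in 1 μg/mL TSLP (the sample annotation also gives the TSLP dose with another unit, mg/mL), and the labels name no mutant allele or further stimulus in any group. BMBAs are CD200R3+ c-Kit- cells. Sorting took FcεRIαhi CD49blo cells as immature (the study's name is pre-basophils) and FcεRIαlo CD49bhi cells as mature. With 2 cytokines and 2 stages there were 4 groups, each of 3 libraries. Each group can hold other marrow cells that passed the gates, and no source used here gives the age or sex of the mice.

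Basophils are rare granulocytes that store histamine and proteases and take part in type 2 immunity. IL-3 binds a receptor made of Il3ra and a common beta chain (Csf2rb, or in the mouse also Csf2rb2). TSLP binds Crlf2 paired with Il7r, and both receptors signal through JAK kinases and STAT5. The 5 genes belong to unrelated families. Asb2 is the substrate-recognition subunit of a cullin 5 ubiquitin ligase that targets filamins. Tgm2 is tissue transglutaminase, which cross-links proteins. Maob is a mitochondrial monoamine oxidase. Scin (scinderin, or adseverin) severs and caps actin filaments, and Dpp4 (CD26) is a surface peptidase that removes N-terminal dipeptides from chemokines and other peptides.

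Library totals ran from 1720065 to 3685285 counts, and 14494 to 16256 genes had a count in a library. The 10 basophil markers had counts in all 4 groups, with Mcpt8 at 16127 and 8765 TMM-normalised CPM (counts scaled to a common library size) in immature and at 4990 and 2898 in mature cells (IL-3 first, then TSLP), and Kit at no more than 0.676 CPM in any group mean. The row Rn45s (ribosomal RNA precursor) took 7.43% to 12.5% of the counts in IL-3 libraries and 8.68% to 20.2% in TSLP libraries. The rows Rn18s and Rn28s1 together held 98.2% to 99.9% as many counts as Rn45s in every library, a match that reads counted in more than 1 row would give. TSLP mature library 1 stood apart from the other 2 of its group. It held 830.2 CPM of 9 neutrophil markers against 50.8 and 59.9, and 195.9 CPM of 10 B lineage markers against 22.7 and 24.0. Results on TSLP mature cells are therefore also given without it. In sorted bulk RNA, fewer cells of a type and less RNA per cell cannot be told apart.

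The 5 genes lie on 3 chromosomes, all on the minus strand (mouse build GRCm38, GENCODE annotation). Asb2 spans chr12:103321142-103356001 with 11 merged exons, Scin chr12:40059769-40134228 with 16, Tgm2 chr2:158116402-158146436 with 14, Dpp4 chr2:62330073-62412231 with 28 and Maob chrX:16709282-16817366 with 17. Tgm2 overlaps the opposite-strand gene Rprd1b by up to 370 exonic bases, and no source used here says whether counting used strand. Rprd1b had 720 counts over the 12 libraries, and its means were 22.9 ± 1.45 and 21.3 ± 2.53 CPM in immature cells and 20.2 ± 3.24 and 17.0 ± 4.40 CPM in mature cells (IL-3 first, then TSLP, SD, n = 3). Its mean was lower in TSLP than in IL-3 cells of the same stage, and the difference passed the test in neither stage. Dpp4 overlaps Gm13561, an antisense transcript with 1 count in all. Tgm2 also overlaps the opposite-strand transcript Gm20412 by up to 521 exonic bases. The count table has no row named Gm20412, so its level could not be compared. Of all stretches of 50 exonic bases, Tgm2 shared 18.7% with Rprd1b and Gm20412, Dpp4 2.92% with Gm13561, and Scin 0.871% with many genes, while Asb2 and Maob shared none with another annotated gene.

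The windows around the transcription starts of Asb2, Scin and Dpp4 are printed because Asb2 and Scin had the lowest Pearson r of any pair of the 5 genes and Scin and Dpp4 fell together in TSLP. RefSeq start sites of build GRCm38.p6 were found for 3 of the 5 genes, and 2 are given for Asb2. Each window runs 5′ to 3′ on the minus strand from 250 bases before the start to 50 after. Capitals mark matches on either strand. The letters searched were TTCNNNGAA for STAT proteins, AGATAA and also TGATAA for the GATA family, TGTGGT for the RUNX family, and AGGTCA for nuclear receptors, and no 2 matches overlap.
Asb2, upstream start (chr12:103355952-103356251, minus strand): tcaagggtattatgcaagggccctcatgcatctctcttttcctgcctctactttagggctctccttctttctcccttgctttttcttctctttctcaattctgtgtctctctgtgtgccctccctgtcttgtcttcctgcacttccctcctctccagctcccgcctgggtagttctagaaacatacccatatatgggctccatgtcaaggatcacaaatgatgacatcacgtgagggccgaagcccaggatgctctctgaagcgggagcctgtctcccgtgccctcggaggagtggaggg
Asb2, downstream start (chr12:103338341-103338640, minus strand): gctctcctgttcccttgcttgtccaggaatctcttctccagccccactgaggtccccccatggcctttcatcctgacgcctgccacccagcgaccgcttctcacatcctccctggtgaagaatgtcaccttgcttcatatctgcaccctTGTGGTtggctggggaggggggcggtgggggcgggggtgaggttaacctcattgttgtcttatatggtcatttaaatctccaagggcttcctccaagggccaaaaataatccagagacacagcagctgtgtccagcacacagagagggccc
Scin (chr12:40134179-40134478, minus strand): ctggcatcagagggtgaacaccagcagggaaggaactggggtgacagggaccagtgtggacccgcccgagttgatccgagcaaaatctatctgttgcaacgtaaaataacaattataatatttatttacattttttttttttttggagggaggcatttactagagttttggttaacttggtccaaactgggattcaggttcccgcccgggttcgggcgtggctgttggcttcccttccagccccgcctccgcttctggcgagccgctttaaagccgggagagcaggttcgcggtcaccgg
Dpp4 (chr2:62412182-62412481, minus strand): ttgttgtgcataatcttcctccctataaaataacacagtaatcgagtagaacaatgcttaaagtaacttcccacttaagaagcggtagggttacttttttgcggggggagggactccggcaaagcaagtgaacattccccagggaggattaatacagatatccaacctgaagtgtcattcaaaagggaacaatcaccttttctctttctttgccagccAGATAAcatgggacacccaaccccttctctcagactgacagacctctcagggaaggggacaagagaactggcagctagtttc
The Dpp4 window held AGATAA at position -32 and the window at the downstream Asb2 start held TGTGGT at position -101, counted from the start site, both on the strand of the gene. No match to these letters lay in the Scin window or at the upstream Asb2 start. Over 32851 RefSeq mouse windows of the same length, 11.2% held AGATAA, 16.8% TGTGGT, 8.30% TTCNNNGAA, 9.05% TGATAA and 16.3% AGGTCA, so the matches are a description of the sequence only.

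Asb2 was lowest in IL-3 immature and highest in TSLP mature cells. It stood at 3.40, 2.29 and 3.31 TMM-normalised CPM in the 3 IL-3 immature libraries and at 70.4, 62.5 and 80.4 in TSLP immature. It stood at 99.4, 114.0 and 124.5 in IL-3 mature and at 198.3, 196.0 and 192.9 in TSLP mature libraries. The 4 groups did not overlap anywhere, and the IL-3 immature libraries held only 7, 8 and 10 counts. In immature cells, where the gene was picked, the level was 23.9-fold higher in TSLP (95% interval 17.1 to 33.5). In mature cells, the other stage, Asb2 was 1.74-fold higher in TSLP (95% interval 1.37 to 2.21), a log2 fold change of 0.80 ± 0.163 (SE, edgeR adjusted p = 0.00315, higher in all 3 TSLP libraries than in any IL-3 library). Without TSLP mature library 1 the log2 fold change was 0.71 (edgeR adjusted p = 0.00333).

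Tgm2 was high in both TSLP groups and low in both IL-3 groups. It stood at 71.6, 83.2 and 65.7 CPM in TSLP immature and at 63.4, 67.8 and 63.7 in TSLP mature libraries. It stood at 24.3, 13.4 and 15.9 in IL-3 immature and at 9.62, 9.47 and 9.47 in IL-3 mature libraries. Every TSLP library lay above every IL-3 library, and the 2 TSLP groups overlapped while the 2 IL-3 groups did not. In mature cells, where the gene was picked, the level was 6.80-fold higher in TSLP (95% interval 4.91 to 9.41). In immature cells it was 4.19-fold higher (95% interval 3.10 to 5.68), a log2 fold change of 2.07 ± 0.206 (SE, edgeR adjusted p = 1.08e-05). The overlapping gene Rprd1b had a log2 fold change of -0.11 in the same stage (edgeR adjusted p = 0.788), and Gm20412, which also overlaps Tgm2, had no counts to compare.

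Maob was high in IL-3 mature cells alone. It stood at 43.5, 34.2 and 39.2 CPM in IL-3 mature libraries and at 4.85, 9.14 and 5.63 in IL-3 immature. It stood at 2.10, 3.52 and 0.340 in TSLP immature and at 1.35, 2.27 and 2.77 in TSLP mature libraries, which is 7, 9 and 1 counts and 5, 8 and 9 counts. The TSLP groups overlapped with each other and with no IL-3 library. In mature cells, where the gene was picked, the level was 18.2-fold lower in TSLP (95% interval 10.4 to 31.9). In immature cells it was 3.42-fold lower (95% interval 1.72 to 6.79), a log2 fold change of -1.77 ± 0.467 (SE, edgeR adjusted p = 0.0204). This call rested on few counts and was lost on leaving out any of 3 libraries, IL-3 immature 2 (-1.46, edgeR adjusted p = 0.115), TSLP immature 1 (-1.89, edgeR adjusted p = 0.0549) or TSLP immature 3 (-1.30, edgeR adjusted p = 0.0814).

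Scin was high in IL-3 immature cells alone, the reverse of Asb2. It stood at 81.0, 81.7 and 87.4 CPM in IL-3 immature libraries and at 16.4, 13.1 and 13.1 in IL-3 mature. It stood at 8.72, 7.81 and 11.9 in TSLP immature and at 3.24, 3.12 and 6.77 in TSLP mature libraries. No 2 of the 4 groups overlapped, with the other 3 groups between 3.12 and 16.4 CPM. In immature cells, where the gene was picked, the level was 8.74-fold lower in TSLP (95% interval 6.13 to 12.5). In mature cells it was 3.27-fold lower (95% interval 2.15 to 4.98), a log2 fold change of -1.71 ± 0.286 (SE, edgeR adjusted p = 0.00101), and -1.62 without TSLP mature library 1.

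Dpp4 was low in both TSLP groups. It stood at 5.11, 3.52 and 4.09 CPM in TSLP immature and at 5.13, 5.39 and 4.0 in TSLP mature libraries. It stood at 41.2, 18.9 and 18.9 in IL-3 immature and at 15.3, 18.2 and 14.4 in IL-3 mature libraries. Every IL-3 library lay above every TSLP library, and IL-3 immature library 1 lay far above the other 2 of its group. In immature cells, where the gene was picked, the level was 5.96-fold lower in TSLP (95% interval 3.65 to 9.73). The log2 value there was -2.57 with all libraries and -2.14 without IL-3 immature library 1. In mature cells it was 3.28-fold lower (95% interval 2.02 to 5.34), a log2 fold change of -1.71 ± 0.331 (SE, edgeR adjusted p = 0.00233), and -1.84 without TSLP mature library 1.

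**Figure D1:**
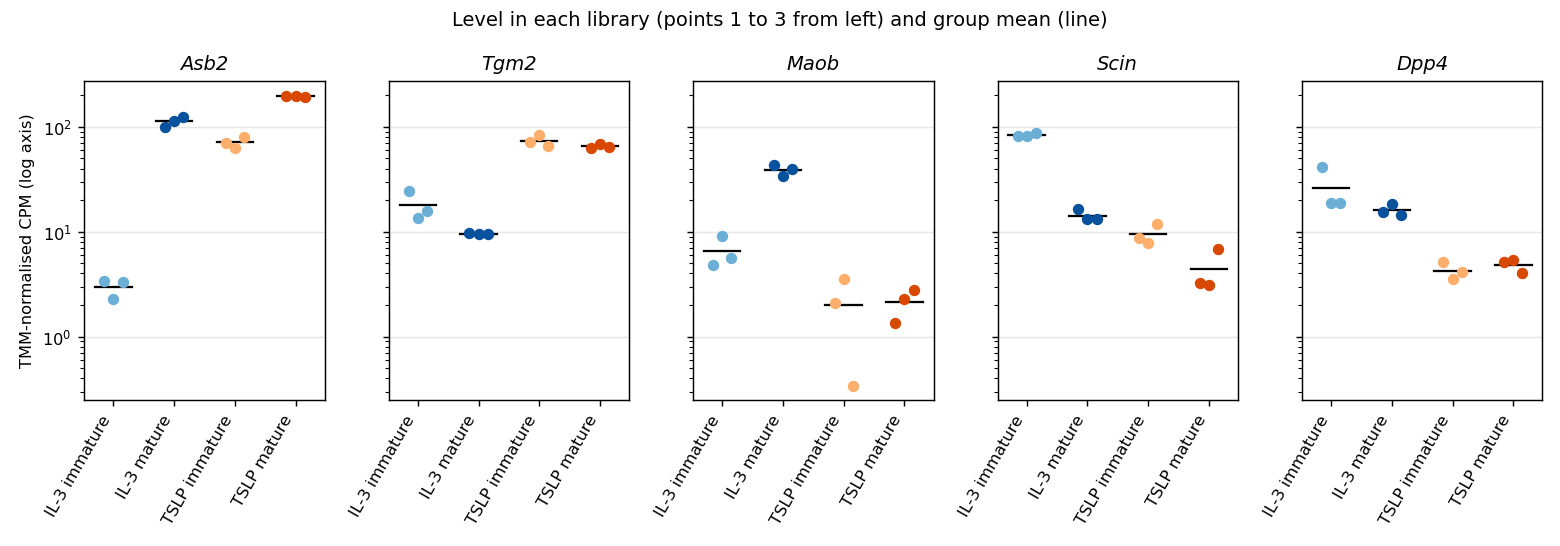
TMM-normalised CPM (log axis) of the 5 genes in each of the 12 libraries, with 1 panel per gene, points for libraries 1 to 3 from left in each group and a line at the group mean. Over both stages, the TSLP and IL-3 libraries do not overlap for Tgm2, Dpp4, Maob and Scin. For Asb2, the IL-3 mature libraries lie above the TSLP immature libraries. Tgm2 means are 73.5 and 65.0 CPM in TSLP against 17.9 and 9.52 in IL-3. Asb2, Maob and Scin each have an IL-3 group far from the other IL-3 group.

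In the other stage, too, the difference between TSLP and IL-3 had an adjusted p under 0.05 (called from here on) for all 5 genes, in the same direction as in the picked stage. Since that stage may have been seen in the choice, the count describes the 5 genes and is no independent support. Over all tested genes 24.3% were called in mature and 13.3% in immature cells, and 5.9% were called in the same direction in both stages. The calls in mature cells were 1345 higher and 1289 lower in TSLP, and 1034 higher and 1504 lower when the 3 ribosomal RNA rows were left out before scaling. Of the genes called in 1 stage, a part was also called in the other stage in the same direction. It was 32.9% of the genes higher in immature cells (the stage that picked Asb2), 19.6% of those higher in mature cells (Tgm2), 58.8% of those lower in immature cells (Scin and Dpp4) and 29.2% of those lower in mature cells (Maob). In the other stage the libraries of the 2 cytokines did not overlap for any of the 5 genes, and neither did they for 38.6% of all genes in mature and 38% in immature cells. They did not overlap in the picked stage either, where the choice itself favoured this.

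The choice of the genes for a large difference in 1 stage fixes a high rank there, so the ranks are given as a description. Ranked by fold change within the called genes whose mean reached 10 CPM, Asb2 was 624th of 1033 higher in mature cells, against 6th of 677 in immature cells, where it was picked. Scin and Dpp4 were 186th and 185th of 1014 lower in mature cells, against 1st and 3rd of 515 in immature cells. Tgm2 was 68th of 677 higher and Maob 45th of 515 lower in immature cells, against 19th of 1033 and 2nd of 1014 in mature cells.

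**Figure D2:**
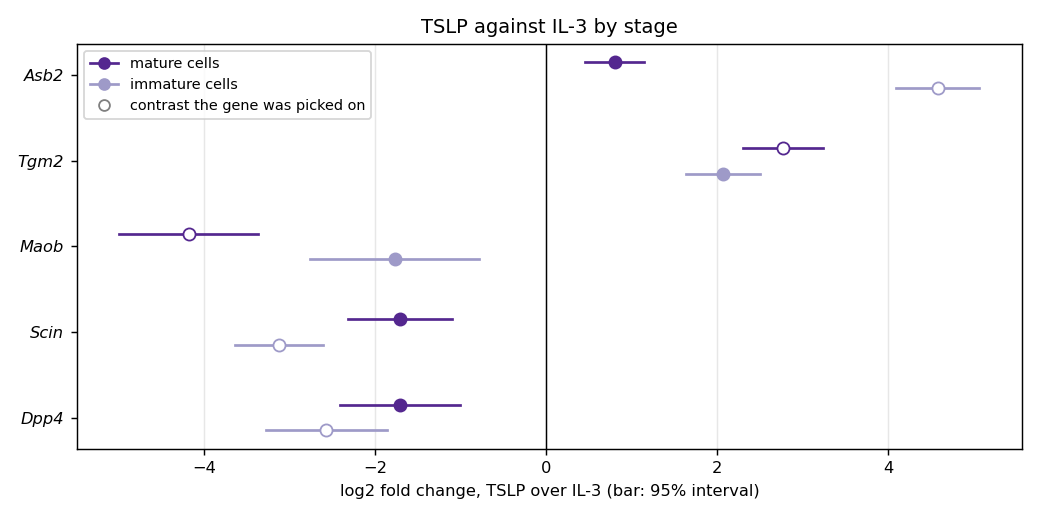
Log2 fold change of TSLP over IL-3 for the 5 genes in mature and immature cells, with 95% intervals as bars and an open point for the stage on which the gene was picked. All 10 intervals lie on 1 side of 0, from -4.18 for Maob in mature cells to 4.58 for Asb2 in immature cells.

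The difference in mature cells minus that in immature cells was -3.78 ± 0.286 on the log2 scale for Asb2 (SE, 95% interval -4.39 to -3.18), whose difference was larger in immature cells. It was 1.42 ± 0.384 for Scin (95% interval 0.60 to 2.23), also larger in immature cells. Tgm2 (0.70 ± 0.301, 95% interval 0.06 to 1.34) and Maob (-2.41 ± 0.668, 95% interval -3.82 to -0.99) had the larger value in mature cells, and Dpp4 (0.86 ± 0.482, 95% interval -0.16 to 1.88) in immature cells. In the interaction term of edgeR, Asb2 and Scin were called and the other 3 were not, against 4.19% of all genes. With the replicate number as a block, Maob (-2.44) was called as well. Each of these values holds the contrast that chose the gene, so they describe the 5 genes and are no independent test. The call of Scin was lost when any of 9 libraries was left out, with values from 0.98 to 1.59 over all 12.

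The genes were not chosen for the maturation contrasts, but these share the libraries of the choice. A choice for an extreme level in the libraries of 1 stage also favours a difference between the stages. The calls, p values and rank for both cytokines are therefore a description of the 5 genes and are not independent of the choice. In IL-3 cultures, where 46.2% of all genes were called between immature and mature cells, 4 of the 5 genes were called. Asb2 was 37.8-fold lower in immature cells (95% interval 27.0 to 53.1, log2 -5.24 ± 0.230, edgeR adjusted p = 2.48e-10) and ranked 14th of 2128 among the genes lower in immature cells. Maob was 5.76-fold lower in immature cells (95% interval 3.53 to 9.40, edgeR adjusted p = 1.34e-05). Scin went the other way and was 5.85-fold higher in immature cells (95% interval 4.15 to 8.23, edgeR adjusted p = 2.58e-07). Tgm2 was 1.83-fold higher in immature cells (95% interval 1.29 to 2.60, edgeR adjusted p = 0.00664). Dpp4 was not called, with 1.60-fold (95% interval 1.05 to 2.45, edgeR adjusted p = 0.0635), and its log2 value was 0.68 with all libraries and 0.26 without IL-3 immature library 1.

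In TSLP cultures, where 25.1% of all genes were called, 2 of the 5 were called, with the direction they had in IL-3. Asb2 was 2.75-fold lower in immature cells (95% interval 2.16 to 3.51, edgeR adjusted p = 8.14e-06). Scin was 2.19-fold higher in immature cells (95% interval 1.42 to 3.38, edgeR adjusted p = 0.0105). For Tgm2, Maob and Dpp4 the libraries of the 2 stages overlapped. Their log2 values were 0.18 (95% interval -0.22 to 0.57), -0.12 (95% interval -1.28 to 1.04) and -0.18 (95% interval -1.0 to 0.64), with edgeR adjusted p of 0.53, 0.901 and 0.778. TSLP libraries held 1 to 9 counts of Maob, and the sign of its value turned on leaving out TSLP immature 3 (0.47), TSLP mature 2 (0.0037) or TSLP mature 3 (0.16).

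**Figure D3:**
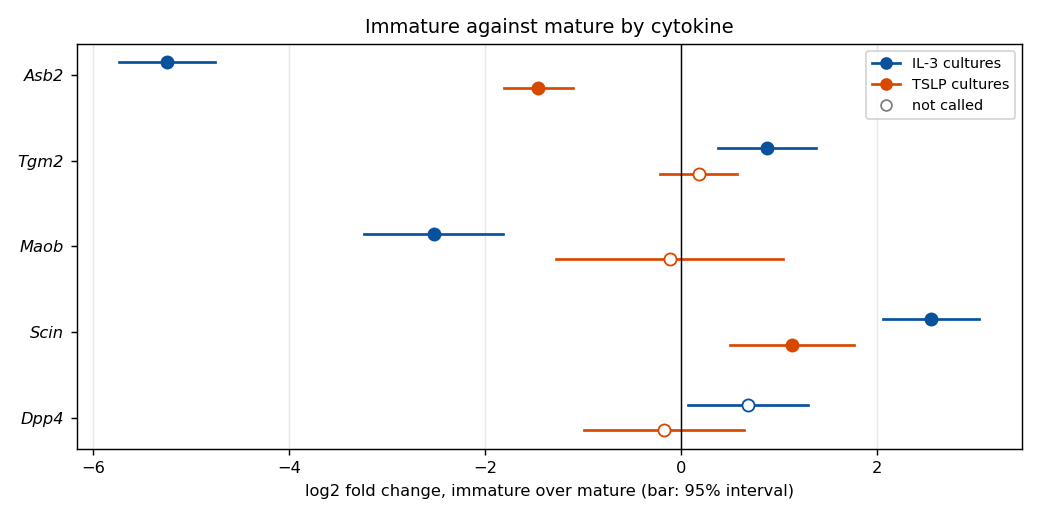
Log2 fold change of immature over mature cells for the 5 genes in IL-3 and in TSLP cultures, with 95% intervals as bars and open points for genes that were not called. Asb2 and Scin keep their sign at a smaller size in TSLP (-5.24 and -1.46 for Asb2, 2.55 and 1.13 for Scin), and the TSLP intervals of Tgm2, Maob and Dpp4 span 0.

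Split into parts, the variation of log2 CPM over the 12 libraries lay mostly with the cytokine for Tgm2 (91.9% of the sum of squares) and Dpp4 (87.8%). It lay with the cytokine for 64.4% in Maob and 58.0% in Scin, where the stage took 16.4% and 33.5%. In Asb2 the stage took more (51.7%) than the cytokine (32.6%), and 15.3% lay in the difference of differences. The cytokine part was larger than both the stage part and the difference of differences for 4 of the 5 genes and for 33.5% of all tested genes. The part within groups was not in this comparison. Of the sum of squares, 0.419% to 8.51% lay within groups for the 5 genes and a median of 31.5% over all genes. The CV between libraries of a group ran from 0.886% (Tgm2 in IL-3 mature) to 80.1% (Maob in TSLP immature cells), and in 10 of the 20 pairs of gene and group the SD between libraries was below the counting error. A choice for large differences between TSLP and IL-3 favours a large cytokine share and a small share within groups. These shares and the count of 4 genes are therefore a description.

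**Figure D4:**
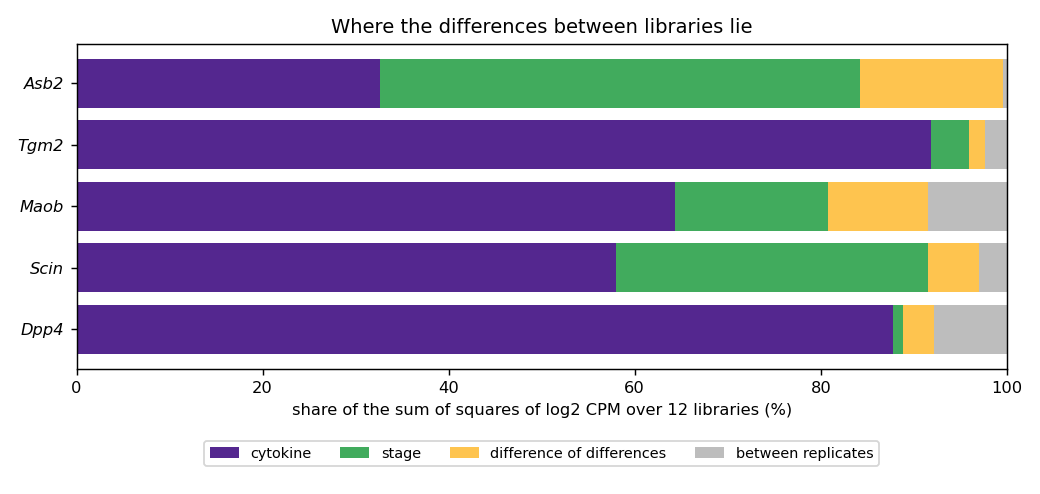
Share (percent) of the sum of squares of log2 CPM over 12 libraries that lies with the cytokine, the stage, the difference of differences and the replicates, with 1 bar per gene. The cytokine share runs from 32.6% in Asb2 to 91.9% in Tgm2, and Asb2 is the gene in which the stage share (51.7%) is larger than the cytokine share.

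Transcripts that mark other cells moved with some of these levels. The summed level of the 9 macrophage or monocyte markers, all 9 with counts in every group, was lowest in IL-3 immature libraries (21.5 to 49.5 CPM), then came TSLP immature (98.6 to 124.6) and IL-3 mature (231.8 to 328.4), and TSLP mature libraries were highest (372.3 to 654.3). That is the order of the Asb2 groups. The group means of the basophil markers Hdc, Gata2 and Cd200r3 had this order too, and those of the other basophil markers did not. Hdc, for example, stood at 409.7, 645.6, 919.0 and 1059.2 CPM in that order of groups. The 10 B lineage markers reached 37.1 to 42.6 CPM in TSLP immature and 22.7 to 195.9 in TSLP mature libraries, against 6.86 to 8.25 and 3.16 to 4.27 in immature and mature IL-3 libraries, with Igll1 at 0 in both IL-3 groups, and Tgm2 was higher in the same groups. Neutrophil markers, all 9 with counts in every group, summed to 166.9 to 195.4 CPM in immature and 304.5 to 427.1 in mature IL-3 libraries, and to 113.0 to 166.9 in TSLP immature libraries. Mast cell markers summed to at most 12.1 CPM in any library, with Tpsab1 and Mrgprb2 at 0 in all 4 groups. Over all 12 libraries, eosinophil markers summed to 20.4 to 90.8 CPM, megakaryocyte markers to 606.8 to 1098.6, dendritic cell markers to 1.66 to 25.1, T, NK or innate lymphoid cell markers to 0.902 to 8.63, and erythroid markers to at most 7.71. The part of these transcripts in the results was not tested. The ribosomal RNA share was higher in most TSLP libraries. Leaving out its rows before scaling changed no direction or call of TSLP against IL-3 in the chosen genes, and its part was not otherwise tested.

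Per kilobase of exon, Asb2 in TSLP mature cells was the highest level of any of the 5 genes (55.3 ± 0.763 CPM per kb, SD, n = 3). Asb2 in IL-3 mature cells (31.8 ± 3.56) and Scin in IL-3 immature cells (27.8 ± 1.17) followed and did not differ beyond their spread. Tgm2 in TSLP immature and TSLP mature cells stood at 16.0 ± 1.93 and 14.1 ± 0.535, beside Maob in IL-3 mature cells at 14.0 ± 1.65. Maob and Dpp4 in both TSLP groups and Asb2 in IL-3 immature cells lay between 0.671 and 0.846 CPM per kb.

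Over the 12 libraries, the levels of Asb2 and Scin ran opposite to each other (Pearson r of log2 CPM -0.94, Spearman rho -0.77), as did those of Tgm2 and Maob (r -0.89, rho -0.80) and of Tgm2 and Dpp4 (r -0.82, rho -0.68). Scin and Dpp4 ran together (r 0.80, rho 0.78), and Asb2 and Maob did not (r -0.05). The libraries form 4 groups and share them in every pair, so these are descriptions of the group pattern. Among the 7549 genes whose mean reached 10 CPM, the 3 most like Asb2 were Bhlhe40 (r 0.99), a transcriptional repressor, Adam19 (0.99), a membrane metalloprotease, and Lypd6 (0.99). Bhlhe40 stood at 10.6 and 99.1 CPM in immature and mature IL-3 cells and at 67.3 and 156.6 CPM in immature and mature TSLP cells. For Asb2 the likeness is one of group means, since within groups its r was -0.81 with Bhlhe40, 0.20 with Adam19 and 0.05 with Lypd6. Pfkl (0.96), a subunit of phosphofructokinase, Sigirr (0.94) and Nlrx1 (0.94) were most like Tgm2. Bet1l (0.96), Iqgap2 (0.96) and Arl2bp (0.95) were most like Maob, and Iqgap2 stood at 75.6, 138.5, 42.1 and 44.7 CPM in the same order of groups. Ccar1 (0.94), Asrgl1 (0.93) and Sec63 (0.93) were most like Scin, and B3gnt2 (0.96), Arl16 (0.94) and Morf4l1 (0.94) most like Dpp4. Within groups, the r of the genes named for Tgm2, Maob, Scin and Dpp4 ran from -0.42 (Sec63) to 0.89 (Arl16).

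The families of the 5 genes did not share their changes as a whole. The counts below leave the 5 genes out and are read against 12.4% higher and 11.9% lower of all genes in mature cells and 7.38% higher and 5.9% lower in immature cells, with all-gene median log2 fold changes of 0.09 and 0.04. Of 12 tested ASB proteins and cullin 5 ligase genes, 4 were called lower in TSLP in mature and 1 in immature cells, and the rest were not called (medians -0.05 and 0.16). Single values in brackets here and in the lists that follow are log2 fold changes of TSLP over IL-3. The lower ones were subunits of the ligase to which Asb2 binds. Elob (elongin B) went from 111.3 CPM in IL-3 mature to 28.9 in TSLP mature cells (log2 -1.93 ± 0.484, SE, edgeR adjusted p = 0.00995). Tceb1 and Eloc, the old and new symbols of elongin C counted in separate rows, had log2 values of -1.11 and -1.39, and Cul5 had -0.58. In immature cells Tceb1 (-0.91) was the gene called. The filamin Flna, a substrate of Asb2, had log2 values of 0.35 in mature and 0.74 in immature cells, with edgeR adjusted p of 0.292 and 0.0502. Without TSLP mature library 1, Flna was called higher in immature cells (0.70, edgeR adjusted p = 0.0134), and 1 of the 12 ligase genes was called higher and 2 lower there.

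Of the 2 other tested transglutaminases, F13a1, the A subunit of coagulation factor XIII, rose with TSLP in both stages. It went from 25.3 to 179.8 CPM in immature and from 40.2 to 117.8 CPM in mature cells, with log2 values of 2.83 ± 0.190 in immature and 1.55 ± 0.181 in mature cells (SE, edgeR adjusted p = 1.27e-07 and 7.22e-05). Tgm1 was higher in immature cells (1.97) and not called in mature cells (-0.35), where it was called lower (-0.55) without TSLP mature library 1.

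Among 7 monoamine genes beside Maob, Slc22a3, a transporter of histamine and other monoamines, was lower with TSLP in both stages. It fell from 97.0 to 30.2 CPM in immature (log2 -1.68 ± 0.207) and from 11.0 to 3.92 in mature cells (-1.47 ± 0.289, SE, edgeR adjusted p = 8.04e-05 and 0.00253). Slc18a2, the vesicular monoamine transporter, was lower (-1.04) and Hdc, which makes histamine, higher (0.66) in immature cells. The list counts were thus 1 higher and 2 lower of 7 in immature and 1 lower in mature cells (medians -0.50 and -0.44), and 3 were lower in each stage without TSLP mature library 1.

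Of 8 gelsolin family and actin-severing genes beside Scin, 2 were called higher in immature and 1 higher and 1 lower in mature cells (medians 0.33 and 0.22). Gsn (gelsolin) rose in both stages (log2 0.76 and 0.69), opposite to Scin, and reached 690.4 CPM in TSLP mature cells. Capg, which caps actin filaments, was higher in immature cells (1.46), and Vill was lower in mature cells (-1.28). Without TSLP mature library 1 the immature counts were 3 higher and 1 lower, and the lower one was Vill (-0.83, edgeR adjusted p = 0.0377).

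Of 8 genes listed beside Dpp4, which are dipeptidyl and prolyl peptidases and the adenosine deaminase Ada, 3 were called. All 3 were higher in TSLP in mature cells (medians 0.28 in immature and 0.53 in mature cells). These were Dpp9 (1.14), Prep (1.11) and Dpp3 (0.62), all opposite to Dpp4, and Dpp3 was not called without TSLP mature library 1. Among 3 tested chemokines that DPP4 can cleave, Ccl4 (1.84) and Ccl3 (1.10) were higher in immature cells and Cxcl2 (-1.93) was lower in mature cells (medians 1.10 and -0.02).

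**Figure D5:**
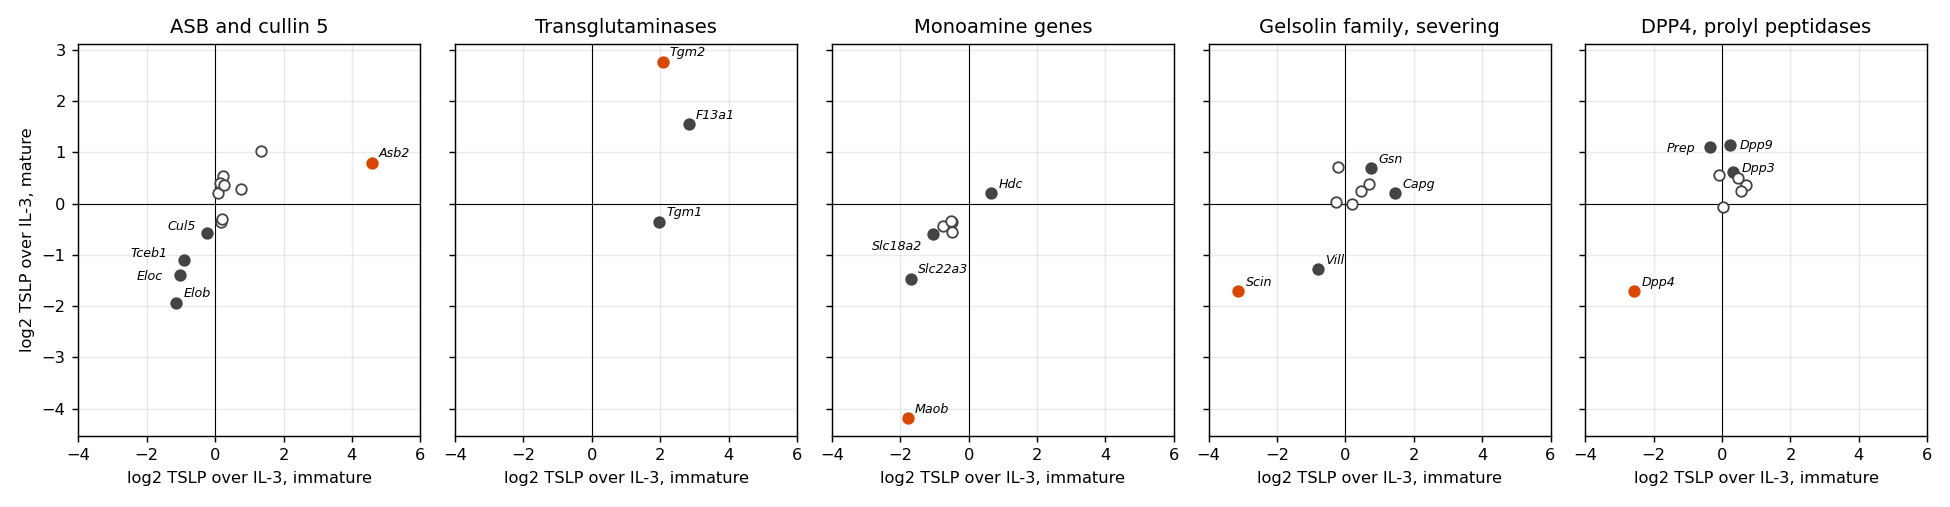
Log2 fold change of TSLP over IL-3 in immature (x axis) and mature cells (y axis) for the tested genes of 5 families, with the 5 chosen genes in orange, filled points for genes called in at least 1 stage and open points for the rest. F13a1 (2.83 and 1.55) lies near Tgm2 and Slc22a3 (-1.68 and -1.47) lies on the side of Maob. Vill (-0.80 and -1.28) lies on the side of Scin, while no other prolyl peptidase lies near Dpp4.

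Asb2 and Tgm2 are known targets of retinoic acid, Tgm2 also of IL-4 signalling, and genes of these routes were counted too. Of 7 other retinoic acid genes, 1 was called in each stage, higher in TSLP (medians 0.08 in mature and 0.46 in immature cells). It was Dhrs3, a retinaldehyde reductase, in mature cells (1.08) and the receptor gene Rara in immature cells (1.94), where 2 were higher without TSLP mature library 1. Of 10 other IL-4 and STAT6 response genes, 4 were higher and 1 lower in mature and 5 higher in immature cells (medians 0.48 and 1.20). Mgl2, a macrophage lectin, was higher in both stages (2.37 in mature and 2.69 in immature cells), as was the receptor Il4ra (0.67 and 2.40). Without TSLP mature library 1, Mgl2 was 1.74 in mature cells and Il4ra was not called there (0.61, edgeR adjusted p = 0.0718). Chil3, another macrophage gene, was higher in mature cells (2.10, and 1.26 without TSLP mature library 1), and 3 were higher there in all without that library.

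Genes around the 2 receptors were counted last. Of 16 STAT5 targets, 11 were called in immature cells, all higher with TSLP, and 4 were higher and 3 lower in mature cells (medians 1.62 and 0.30). Lif, a cytokine of the IL-6 family, was among the most changed (6.61 ± 0.323 in immature and 2.52 ± 0.217 in mature cells, SE). The feedback inhibitor Cish (3.41 and 1.36) and the kinase Pim2 (2.67 and 1.46) were higher in both stages. Socs3 and Pim1 were higher in immature (2.54 and 0.96) and lower in mature cells (-0.74 and -0.72). Of 9 receptor, JAK and STAT genes, 3 were higher and 1 lower in immature and 1 higher and 2 lower in mature cells (medians 0.48 and 0.21). Il3ra, the specific chain of the IL-3 receptor, was lower in TSLP in both stages (-1.45 and -1.42), as were Maob, Scin and Dpp4. Il7r was higher in immature (2.08) and lower in mature cells (-1.57). Csf2rb2 (0.90) and Csf2rb (0.74) were higher in immature cells, where 4 genes of the list were higher without TSLP mature library 1, and Stat5a (0.78) was higher in mature cells.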

How the data were processed

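Raw counts per gene, deposited by the authors as a table with 1 column per library, were used. Oligo(dT)-captured mRNA was turned into PCR-amplified whole-transcriptome cDNA and sequenced on an Ion Proton instrument, and the authors trimmed reads with Cutadapt and mapped them to GRCm38 reference RNA with Bowtie2. The submitters' processing notes name GRCm39 and mm10 instead. No source used here gives strand use or the treatment of reads that fit several transcripts. An unnamed row that equalled the sum of the others (50% of each column) was left out. All 12 columns were mapped by name. The labels do not say what a replicate number marks. Deviations from group means of same-numbered libraries had r of 0.48, 0.11 and 0.19 between IL-3 mature and TSLP mature and of 0.24, 0.14 and 0.55 between the TSLP groups, all over 0.1, and not all over 0.1 in the other 4 pairs of groups, so a fit with the number as a block was an alternative.

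Of 31301 genes, 22634 had a count and 10861 passed filterByExpr (minimum count 10, minimum total 15) and held 99.5% to 99.7% of the counts. All 12 libraries entered 1 fit with a mean per group and no block, scaled by TMM and tested by quasi-likelihood (edgeR 4.0.16, R 4.3.3, glmQLFit and glmQLFTest). p values were adjusted over all 10861 genes (Benjamini-Hochberg, threshold 0.05). The study's own normalisation package, TCC, was not used. SE was taken as the log2 fold change over the root of F, and 95% intervals from the t distribution. The common biological coefficient of variation was 20.4%. CPM are counts over effective library sizes, given as mean ± SD. The fit was tested on simulated data for TSLP against IL-3 in mature cells (10861 genes), where 58% of 2-fold and 99% of 4-fold changes were recovered with 7 false calls. Only 100 genes per fold size were changed there, all with a mean of at least 10 CPM, and the rest did not differ between groups. These rates therefore do not carry over to genes at lower levels or to data with many changes.

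The 5 genes and all lists were chosen with earlier results of these data known. Named beside them were at most 3 called genes per list, direction and stage whose mean reached 10 CPM, and the 3 genes with the highest Pearson r of log2 CPM (prior count 2) with each of the 5. Sums of squares were split on the same log2 CPM. A count table without molecular identifiers gives reads, not molecules. Per the study each group is 3 cultures. Whether they came from separate mice is not given, so p values measure the spread between these libraries. Alternatives were other size factors, DESeq2 1.42.0, other filters, leaving out ribosomal RNA rows, only the groups compared, a replicate block, thinning to 1720065 counts and leaving out each library. Leaving out all 3 ribosomal RNA rows was chosen after the data were seen.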

Additional observations from a re-analysis of the deposited data

Results flagged for a closer look

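For 2 of the 5 genes the difference between TSLP and IL-3 was not of the same size in immature and mature cells by the interaction term of edgeR. The value in mature minus that in immature cells was -3.78 on the log2 scale for Asb2, which went from 3.0 ± 0.618 to 71.1 ± 8.94 CPM in immature and from 112.6 ± 12.6 to 195.8 ± 2.70 CPM in mature cells (IL-3 to TSLP, SD, n = 3). It was 1.42 for Scin, which went from 83.4 ± 3.51 to 9.48 ± 2.16 CPM in immature and from 14.2 ± 1.90 to 4.38 ± 2.07 CPM in mature cells. Both genes were picked on immature cells, so the term is not independent of the choice. The call of Asb2 held in all alternatives tried, with values from -3.91 to -3.61, and that of Scin did not.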

How the results depend on the processing

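The direction of TSLP against IL-3 held in all 220 alternative fits of the 5 genes over both stages, and the call in 217. These fits include the stage each gene was picked on, where the choice itself favoured direction and call, so the counts are a description. The 3 lost calls were those of Maob in immature cells with 1 library left out (-2.41 to -1.30 over the 12 libraries left out). Over all 5 contrasts, 513 of 545 alternative values of the 5 genes kept direction and call, 15 lost a call, 14 gained one and 3 changed sign. Dpp4 between immature and mature IL-3 cells, not called in the report, was called with the size factors of DESeq2 (0.75), no filter (0.77), a filter of 10 CPM (0.79), without Rn45s (0.75), with only the groups compared (0.75) and at thinned depth (0.74), and ran from 0.26 to 0.93 with 1 library left out. Scin between immature and mature TSLP cells was not called with only the groups compared (1.16). The difference between stages was called for Maob with DESeq2 (-2.40), no filter (-2.37) and a replicate block (-2.44), with -2.95 to -1.84 on leaving out 1 library. It was not called for Scin without the 3 ribosomal RNA rows (1.37) or at thinned depth (1.40), and ran from 0.98 to 1.59 with 1 library left out. Maob between immature and mature TSLP cells ran from -0.64 to 0.47, changing sign without TSLP immature 3 (0.47), TSLP mature 2 (0.0037) or TSLP mature 3 (0.16). The cause was not tested for any of these.

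Over all genes, leaving out 1 library gave 1658 to 2968 calls for TSLP against IL-3 in mature cells, where only the groups compared gave 1708 (685 higher and 1023 lower) against 2634, and 588 (without TSLP immature 3) to 2243 (without TSLP mature 1) against 1443 in immature cells. It gave 1774 to 3456 calls between stages in TSLP against 2731, and 240 to 723 for the difference between stages against 455. The replicate block gave 2853 calls in mature and 1893 in immature cells, and among the 5 genes it changed no call other than that of Maob. Maob had 1 to 9 counts in TSLP libraries, and at thinned depth Dpp4 in mature cells went from -1.71 to -1.33. Mean levels on plain or ribosomal-RNA-free scales moved beyond 1 SD in 13 of 40 cases.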
